A study of Mus musculus with 64 samples.

Results

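Among the 16 mice labelled Polq+/-, 4 had the lowest Polq RNA in both tissues, and those 4 were compared with the other 12. The members were chosen by their Polq level: a mouse belonged to the very low class when Polq was under 1 CPM (the counts-per-million unit, over the library total) in both striatum and cortex. The remaining 12 mice labelled Polq+/- form the partial class. The very low class supplied 8 of the series' 64 libraries, 1 from each tissue of every mouse, and the partial class supplied 24.

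The series holds 32 C57BL/6 mice aged 6 months, with striatum and cerebral cortex taken from each and profiled by RNA sequencing. Its 4 labelled genotypes, with 8 mice each (4 females and 4 males), were wild type, Polq+/-, heterozygous Q140 knock-in, and heterozygous Q140 knock-in crossed to Polq+/-. Q140 is an expanded CAG repeat placed in the mouse huntingtin gene, a model of Huntington's disease. How the Polq allele was made is not given in these sources. The very low class held 2 females and 2 males: male 3 of the Polq+/- group, and females 3 and 4 and male 3 of the Q140 Polq+/- group, so 3 of the 4 carried Q140. The partial class held 6 females and 6 males, and 5 of the 12 carried Q140. The 16 mice with both Polq copies by label (8 wild type and 8 Q140) are given as a reference level. Every library came from a separate animal in each tissue, and depth was similar between classes: striatal libraries held 31.3 to 36.4 M counts in the very low class and 31.4 to 40.6 M in the partial class, and cortical libraries 33.7 to 38.3 M and 31.6 to 40.1 M. The striatal marker Ppp1r1b had a median of 2254 CPM in striatum and 81.1 CPM in cortex over the 16 mice, and the cortical marker Slc17a7 had 2.96 CPM in striatum and 1267 CPM in cortex.

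Polq encodes DNA polymerase theta, a large enzyme with a helicase-like and a polymerase region that joins broken DNA ends through short matching stretches. This route, called theta-mediated or microhomology-mediated end joining, uses Parp1 to sense the break, Rbbp8 and the Mre11-Rad50-Nbn complex to trim the ends, and ligase 3 with Xrcc1 to seal them. It is most active in dividing cells, and Polq RNA is scarce in adult brain. Genes that lie close to a targeted gene on the same chromosome tend to be inherited with it, so results on chromosome 16, where Polq lies, are given apart from those on other chromosomes.

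Polq itself (ENSMUSG00000034206, GRCm38 chromosome 16, 37011786 to 37095417, plus strand) chose the classes, and its values are a description with no test. In striatum the very low mice had 0.368 CPM (Polq+/- male 3, 12 counts), 0.302 CPM (Q140 Polq+/- female 3, 11 counts), 0.192 CPM (Q140 Polq+/- female 4, 6 counts) and 0.249 CPM (Q140 Polq+/- male 3, 8 counts). The 12 partial mice ran from 1.27 to 2.45 CPM with a median of 2.02 CPM, and the 16 mice with both copies from 2.27 to 3.95 CPM with a median of 3.11 CPM. In cortex the same 4 mice had 0.600, 0.375, 0.416 and 0.451 CPM (23, 13, 14 and 17 counts), the partial mice 1.12 to 1.96 CPM (median 1.29 CPM) and the mice with both copies 1.80 to 3.32 CPM (median 2.33 CPM). As a share of the mean with both copies, the very low class stood at 8.91% in striatum and 18.9% in cortex, and the partial class at 61.5% and 56.4%.

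The mice nearest the limit were well apart in striatum and closer in cortex. Just inside it, Polq+/- male 3 had 0.600 CPM in cortex with an exact Poisson interval (95%, counting error only) of 0.381 to 0.901 CPM. Just outside it, Q140 Polq+/- female 2 had 1.12 CPM in cortex with an interval of 0.810 to 1.51 CPM, so these intervals overlap. In striatum the same male's interval ended at 0.642 CPM and the lowest partial mouse, Polq+/- female 4, had an interval that began at 0.931 CPM. The same 4 mice were under 1 CPM with TMM scaling, a trimmed-mean adjustment of library size used for all CPM values below, and had the 4 lowest deposited FPKM values among the 16.

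**Figure D1:**
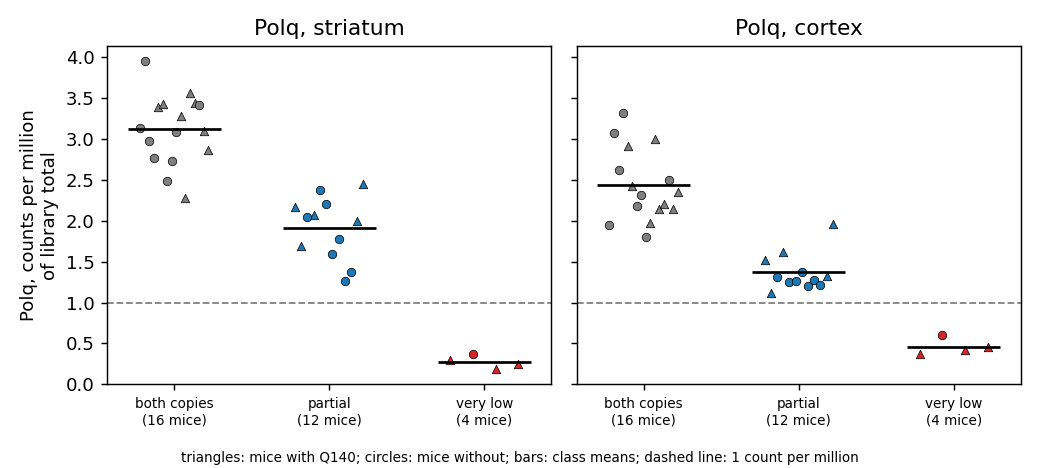
Polq in CPM of the library total (linear vertical axis) in each mouse of the 3 Polq classes, in striatum (left) and cortex (right), with bars at the class means. The 4 very low mice lie under the dashed line at 1 CPM in both tissues, between 0.192 and 0.600 CPM, and every partial mouse lies above it.

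The gene next to Polq that changed most between the classes was Fbxo40, whose annotated start lies 21.3 kb from that of Polq on the opposite strand, so that the starts face away from each other across the gap. The 250 bases before each annotated start (RefSeq, GRCm38.p6) are shown because the very low class had less Polq and more Fbxo40 RNA than the partial class; each runs 5′ to 3′ on the gene's own strand, with CG dinucleotides in capitals. CG reads the same on both strands.
Polq, chr16:37011536-37011785, plus strand: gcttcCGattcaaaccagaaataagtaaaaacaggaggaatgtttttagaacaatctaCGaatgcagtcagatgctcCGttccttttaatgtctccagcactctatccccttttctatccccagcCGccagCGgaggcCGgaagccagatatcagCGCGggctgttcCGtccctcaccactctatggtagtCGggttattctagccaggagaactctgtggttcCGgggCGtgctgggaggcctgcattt
Fbxo40, chr16:36990468-36990717, minus strand: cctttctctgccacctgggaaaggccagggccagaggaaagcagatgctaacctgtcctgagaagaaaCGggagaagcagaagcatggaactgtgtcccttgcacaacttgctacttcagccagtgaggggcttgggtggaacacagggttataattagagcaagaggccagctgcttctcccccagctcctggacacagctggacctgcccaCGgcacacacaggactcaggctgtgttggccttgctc
The Polq window holds 12 CG dinucleotides, a number reached by 33.5% of 32851 RefSeq promoter windows of this length, and the Fbxo40 window holds 2, reached by 81.2%. Fbxo40 has 2 RefSeq starts, and the window shown is the one at the start of the GENCODE gene.

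Fbxo40 (ENSMUSG00000047746, chromosome 16, 36963460 to 36990467, minus strand) encodes a muscle-enriched F-box protein, the substrate-binding part of a ubiquitin ligase, and rose in the very low class in both tissues. In striatum the very low mice had 8.52 CPM (Polq+/- male 3), 8.51 CPM (Q140 Polq+/- female 3), 5.75 CPM (Q140 Polq+/- female 4) and 9.25 CPM (Q140 Polq+/- male 3), and the partial mice had 3.91 to 5.53 CPM with a median of 4.38 CPM. The classes did not overlap, although Q140 Polq+/- female 4 stood close to the highest partial mouse. The log2 difference was 0.81 (SE 0.108, edgeR adjusted p = 9.00e-04). In cortex the same mice had 8.90, 11.8, 9.44 and 10.4 CPM against 4.43 to 7.30 CPM (median 5.04 CPM) in the partial class, again without overlap, and the log2 difference was 0.90 (SE 0.105, edgeR adjusted p = 4.27e-04). The mice with both copies lay at 0.164 to 0.648 CPM (striatum) and 0.161 to 0.689 CPM (cortex), so the 3 classes were fully separated in both tissues. In FPKM, a per-length unit, Fbxo40 reached at most 1.71 in striatum and 2.14 in cortex. No source states whether the counting used strand, so reads of an overlapping transcript from the other strand could not be told apart from Fbxo40. Without Polq+/- male 3 the striatal log2 difference was 0.81 and missed the threshold (edgeR adjusted p = 0.0618).

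The other genes nearest Polq did not pass the test. Stxbp5l, the nearest tested gene on the other side of Polq and a syntaxin-binding protein of the vesicle release machinery, had means of 62.9 ± 3.79 CPM (SD, n = 4) and 60.7 ± 3.06 CPM (SD, n = 12) in striatum, with a log2 difference of 0.02 (95% interval -0.05 to 0.10). In cortex its log2 difference was 0.04 (95% interval -0.06 to 0.14). Hcls1, an actin regulator of blood cells that lies beyond Fbxo40, had log2 differences of 0.10 (95% interval -0.12 to 0.32) in striatum and -0.09 (95% interval -0.30 to 0.11) in cortex. Golgb1, which encodes the Golgi protein giantin, had -0.02 (95% interval -0.08 to 0.03) and 0.04 (95% interval -0.05 to 0.12). Hcls1 and Golgb1 were chosen after their values were seen, to show genes on the far side of Fbxo40.

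Across the striatum, 5 of 19529 tested genes other than Polq were called at an edgeR adjusted p under 0.05, which is 0.0256%, with Q140 status and sex as covariates. Of these, 4 lay on chromosome 16 (Mylk, Sema5b, Fbxo40 and Cd47, out of 563 tested there) and 1 on another chromosome (Myh6, on chromosome 14, out of 18966 tested elsewhere). The Myh6 call rested on 1 library, as given below. In cortex 1 of 19214 genes was called, 0.0052%: Fbxo40, out of 551 tested on chromosome 16. Outside chromosome 16 the cortex gave 0 calls of 18663 genes, where the smallest edgeR adjusted p was 0.775; 817 of them had an unadjusted p under 0.05, and DESeq2 and limma voom also called 0 there. At an unadjusted p under 0.05, the striatum had 549 genes (2.81%) and the cortex 863 (4.49%).

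Mylk, Sema5b and Cd47 were the other chromosome 16 genes called in striatum. Mylk (ENSMUSG00000022836, 34745210 to 35002420, plus strand, 2.01 Mb from Polq) encodes the kinase that phosphorylates myosin light chains in smooth muscle and other cells. Its striatal values in the very low mice were 24.8 CPM (Polq+/- male 3), 28.9 CPM (Q140 Polq+/- female 3), 26.9 CPM (Q140 Polq+/- female 4) and 24.9 CPM (Q140 Polq+/- male 3). The partial mice had 14.5 to 19.2 CPM (median 16.7 CPM) and the mice with both copies 7.30 to 8.81 CPM (median 8.09 CPM). All 3 classes were therefore apart in striatum, in rising order from both copies to very low. The log2 difference of very low from partial was 0.63 (SE 0.054, edgeR adjusted p = 5.71e-07).

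The Mylk difference was smaller in cortex. The very low mice had 19.0, 18.8, 18.8 and 19.0 CPM, just above the partial range of 14.6 to 18.7 CPM, and the mice with both copies reached 17.3 CPM and overlapped the partial class. The log2 difference was 0.18 (SE 0.060, edgeR adjusted p = 0.991) and did not pass the test. The difference between the tissues was itself tested with each mouse as a block: the Mylk class effect was 0.45 larger on the log2 scale in striatum than in cortex (edgeR adjusted p = 0.0364). Mylk was the 1 gene called in that test, of 20252 (0.00494%). In bulk tissue a change in the number of cells that carry a transcript and a change in RNA per cell cannot be told apart.

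Sema5b (ENSMUSG00000052133, 35541145 to 35664732, plus strand, 1.35 Mb from Polq) encodes a transmembrane semaphorin that guides growing axons, and it was the called gene that fell. In striatum the very low mice had 17.5 CPM (Polq+/- male 3), 14.6 CPM (Q140 Polq+/- female 3), 14.4 CPM (Q140 Polq+/- female 4) and 14.5 CPM (Q140 Polq+/- male 3). The partial mice had 20.3 to 25.6 CPM with a median of 23.5 CPM, so the classes did not overlap, and the mice with both copies had 25.4 to 35.4 CPM (median 30.5 CPM). The log2 difference was -0.52 (SE 0.043, edgeR adjusted p = 5.03e-07). Within the Q140 mice alone, 3 very low against 5 partial, it was -0.53 (edgeR adjusted p = 0.00689), close to the value over all 16. In cortex, where Sema5b was lower throughout, the very low mice had 5.13 to 6.81 CPM and the partial mice 6.20 to 9.43 CPM; the classes overlapped and the log2 difference of -0.22 did not pass the test (SE 0.087, edgeR adjusted p = 0.991).

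Cd47 (ENSMUSG00000055447, 49800533 to 49915010, plus strand) lies farther off, 12.7 Mb from Polq. It encodes a cell surface protein that restrains engulfment by binding the receptor Sirpa on phagocytes. In striatum the very low mice had 286, 277, 279 and 267 CPM in the order used above, against 217 to 300.3 CPM (median 242 CPM) in the partial class and 180 to 208 CPM with both copies. The striatal log2 difference was 0.25 (SE 0.042, edgeR adjusted p = 0.0432). In cortex the very low mice had 217, 209, 223 and 219 CPM against 172 to 220 CPM (median 180 CPM), with a log2 difference of 0.26 (SE 0.046, edgeR adjusted p = 0.133). The sizes in the tissues were nearly equal, and a single partial mouse made the classes overlap in each. That mouse was Polq+/- female 2, with 300.3 CPM in striatum and 220 CPM in cortex, while the other 11 partial mice had 217 to 250 CPM and 172 to 185 CPM. Without it the Cd47 adjusted p in edgeR was 7.49e-06 in striatum and 8.45e-06 in cortex. The mouse was singled out by its Cd47 values, so a smaller p without it was built in. These 2 p-values therefore add no support for a difference. The striatal call was lost in 14 of the 16 fits that left out 1 mouse, while the log2 difference stayed between 0.24 and 0.26 in all 16.

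**Figure D2:**
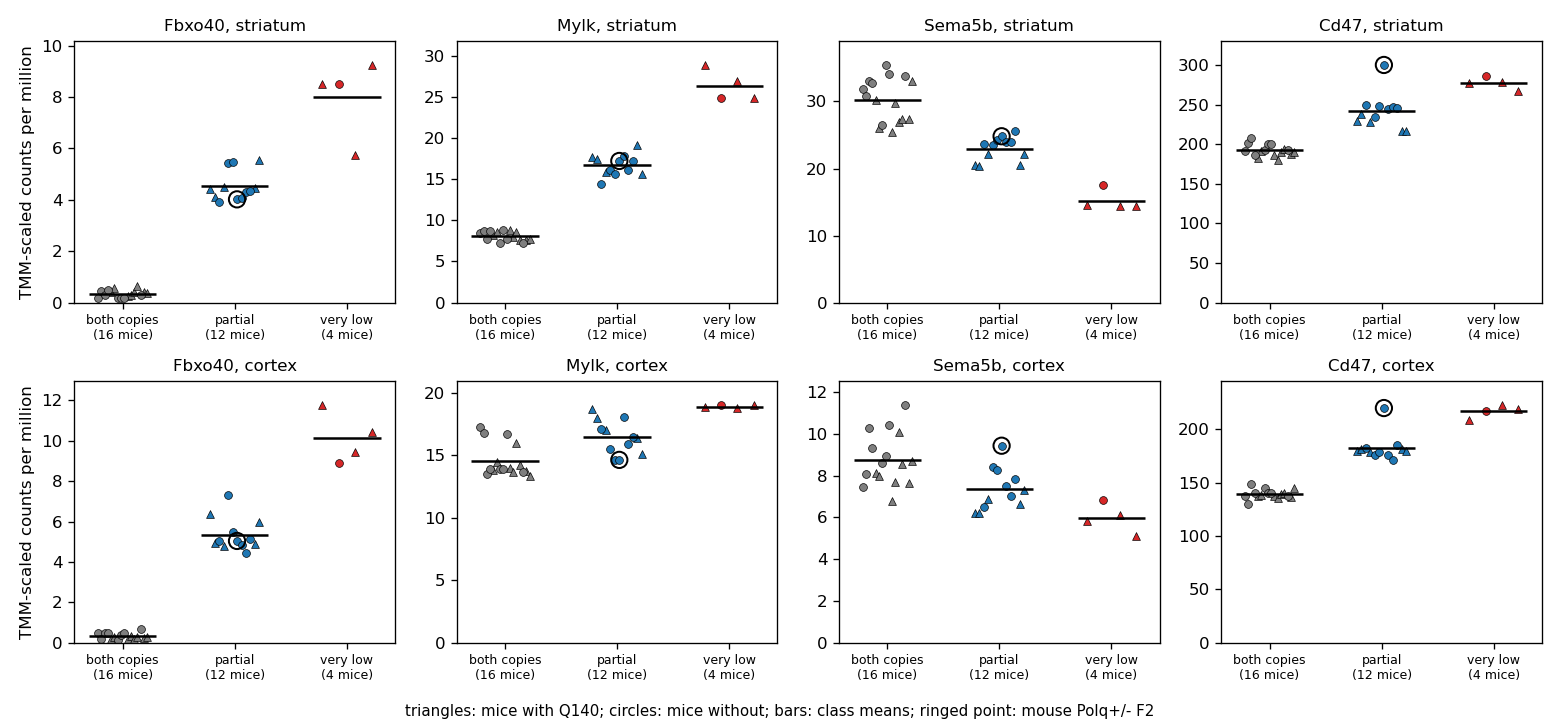
Fbxo40, Mylk, Sema5b and Cd47 in each mouse (TMM-scaled CPM, linear axes from 0) for the 3 Polq classes, in striatum (top) and cortex (bottom), with bars at the class means. Fbxo40 separates the 3 classes in both tissues, Mylk does so in striatum, the very low mice lie below the partial mice for Sema5b in striatum, and the ringed mouse, Polq+/- female 2, lies among the very low mice for Cd47 in cortex at 220 CPM and above them in striatum at 300.3 CPM.

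Polq+/- female 2 was examined at the other chromosome 16 genes because of its Cd47 level, so what follows was chosen after its values were seen. Near Polq it lay inside the range of the other 11 for Fbxo40 (4.02 CPM in striatum, 5.04 CPM in cortex) and for Mylk in striatum (17.2 CPM). Mylk in cortex, at 14.6 CPM, was level with their lowest. Sema5b was inside their range in striatum (24.8 CPM) but not in cortex. There the mouse had 9.43 CPM, above the other 11 (6.20 to 8.39 CPM) and farther from the very low mice (5.13 to 6.81 CPM). To the right of Polq this mouse went beyond the other 11 at several genes. For Pcnp, a nuclear protein gene 18.9 Mb away, it had 57.5 CPM in cortex, below the other 11 partial mice (60.7 to 69.0 CPM) and inside the very low range (54.3 to 61.9 CPM). For Cep97, a centrosomal protein gene, it had 15.6 CPM in cortex against 18.6 to 22.1 CPM in the other 11. For Ift57, a cilium transport gene beside Cd47, it had 52.3 CPM in cortex, above the other 11 (43.6 to 48.0 CPM) and above the very low mice (48.5 to 50.6 CPM). Over the 18 chromosome 16 genes called in either tissue between partial and both copies, this mouse was the highest or lowest of the 12 at 11 genes in cortex and 6 in striatum; for the other partial mice the number was 1 to 6 in each tissue.

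Myh6 (ENSMUSG00000040752, chromosome 14, 54941921 to 54966927, minus strand), the heavy chain of heart muscle myosin, was the call outside chromosome 16, and it rested on 1 library. Polq+/- male 3 had 1.69 CPM in striatum (54 counts), and the other very low mice had 0.027, 0.062 and 0.031 CPM (1, 2 and 1 counts). The partial mice had 0 to 2 counts each, so apart from that male the classes overlapped at the lowest levels that can be counted. The fitted log2 difference was 3.89 (edgeR adjusted p = 0.00506), and without Polq+/- male 3 the gene did not pass the filter on low counts. That filter asks for enough counts in as many libraries as its smallest group holds. Here that group was this 1 male, so Myh6 entered the test through the library in which it was high. With the filter by genotype, 0 genes outside chromosome 16 were called. The same mouse had 2 counts of Myh6 in cortex.

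On chromosome 16 genes with small p-values made up a larger share near Polq than far from it. In striatum 7 of 77 genes within 5 Mb of Polq (9.09%) had an unadjusted p under 0.05, then 5 of 65 at 5 to 10 Mb (7.69%), 7 of 158 at 10 to 20 Mb (4.43%), 2 of 154 at 20 to 40 Mb (1.30%) and 1 of 102 beyond 40 Mb (0.980%). Genes on the other chromosomes gave 2.78%. In cortex the shares were 13.2%, 12.1%, 8.61%, 7.29% and 3.88% over the same steps, against 4.38% on the other chromosomes. The median absolute log2 difference within 5 Mb was 0.0424 in striatum and 0.0456 in cortex, against 0.0466 and 0.0505 on the other chromosomes, so a typical gene there differed no more than one elsewhere. Neighbouring genes were measured in the same mice, and these shares are a description.

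**Figure D3:**
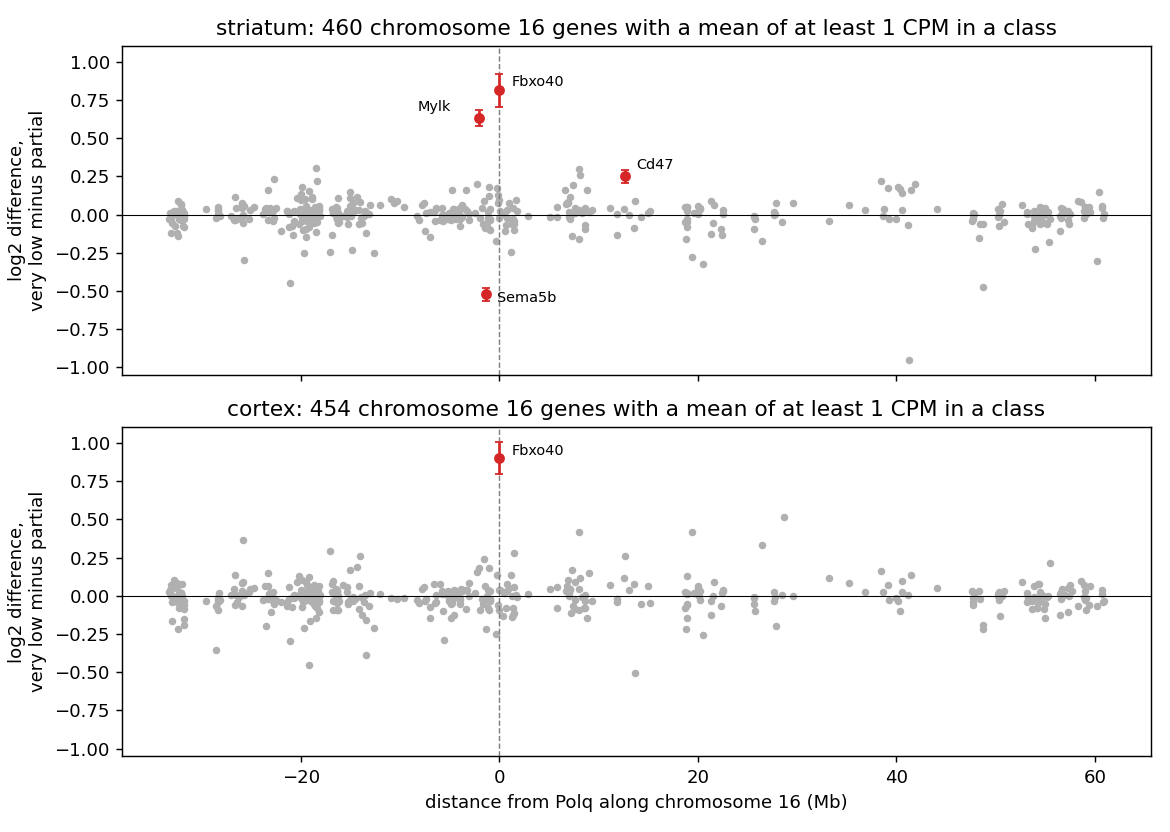
Log2 difference of very low from partial mice against distance from Polq (Mb, linear axis) for 460 chromosome 16 genes in striatum (top) and 454 in cortex (bottom) with a mean of at least 1 CPM in a class. Called genes are red with bars of 1 standard error; in striatum the called genes lie at 0.81 (Fbxo40), 0.63 (Mylk), 0.25 (Cd47) and -0.52 (Sema5b), and in cortex Fbxo40, the 1 called gene, lies at 0.90; the low grey point in striatum is Btg3 (-0.95, SE 0.301), named after its value was seen, which was not called.

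A second count took genes whose CPM did not overlap between the classes. In striatum 19 genes did not overlap (0.0973%), 6 of them among the 563 on chromosome 16. These shares were 1.07% on chromosome 16 and 0.0685% on the other chromosomes. In cortex 19 genes did not overlap (0.0989%), 4 of them among 551 on chromosome 16. There the shares were 0.726% on chromosome 16 and 0.0804% on the others. How many genes would be apart by chance was not tested. Of the called genes, Fbxo40, Mylk and Sema5b did not overlap in striatum and Fbxo40 did not in cortex, while Cd47 and Myh6 overlapped. Upk1b and Gm609 in striatum and Ccdc80 in cortex also did not overlap; these missed the edgeR threshold and were chosen after their values were seen. Upk1b, a membrane protein of the bladder lining whose gene lies 1.68 Mb from Polq, had 2, 3, 4 and 2 counts in the very low striata and 7 to 27 counts in the partial striata (log2 difference -2.34, SE 0.44, edgeR adjusted p = 0.0849). It passed without Polq+/- female 4 (edgeR adjusted p = 0.0100) or without Q140 Polq+/- male 1 (edgeR adjusted p = 0.0267), and over all 16 mice with DESeq2 (adjusted p = 0.0324) and with no low-count filter (edgeR adjusted p = 0.00597), as well as in the fit of all 32 mice (edgeR adjusted p = 0.0424). Upk1b was thus called in 3 of 16 alternatives and in 2 of the 16 fits that left out 1 mouse, and missed the threshold in the rest. Gm609, a predicted gene, had 0 to 2 counts in the very low striata and 4 to 17 in the partial striata (edgeR adjusted p = 0.136). It passed with no low-count filter (edgeR adjusted p = 0.0153) and with all 32 mice (edgeR adjusted p = 0.00362). These were the 2 of 14 alternatives that called Gm609 in striatum, and 0 of the 16 fits that left out 1 mouse did. In cortex the classes overlapped for Gm609. The very low mice had 0 or 1 counts, Polq+/- female 2 and male 1 had 1 count each, and the other partial mice had 7 to 16. Of 13 alternatives that tested it in cortex, 2 called it. Ccdc80, which encodes a secreted matrix protein, had 10.9, 13.3, 11.1 and 11.4 CPM in the very low cortices against 6.37 to 10.4 CPM (median 8.27 CPM) in the partial cortices, and the mice with both copies had 4.76 to 7.18 CPM. Its cortical log2 difference was 0.42 (SE 0.078, edgeR adjusted p = 0.133), and it passed without Q140 Polq+/- male 4 (edgeR adjusted p = 0.0291), with DESeq2 (adjusted p = 0.00560) and with no low-count filter (edgeR adjusted p = 0.00110). Ccdc80 was thus called in cortex in 2 of 16 alternatives and in 1 of the 16 fits that left out 1 mouse. In striatum, where the classes overlapped, its log2 difference was 0.30 (SE 0.096, edgeR adjusted p = 0.9999).

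The step from both copies to partial was set beside the step from partial to very low. These comparisons share the 12 partial mice, so their values are given side by side and no relation between them was tested. Between partial and both copies, 16 of 18269 striatal genes were called (0.0876%), 14 of them on chromosome 16, and 13 of 18115 cortical genes (0.0718%), 12 of them on chromosome 16. Fbxo40 rose by 3.71 in striatum and 4.00 in cortex on the log2 scale at that step, against 0.81 and 0.90 at the next. Mylk in striatum had 1.05 and then 0.63. Sema5b in striatum had -0.41 and then -0.52. Cd47 had 0.32 and then 0.25 in striatum, and 0.39 and then 0.26 in cortex.

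The chromosome 16 genes called at the first step ran from 2.01 Mb on the left of Polq to 41.2 Mb on its right, and all of them could be tested at the second. In striatum 4 of the 14 were called between very low and partial, where 0.0256% of all genes were, and 9 had an unadjusted p under 0.05, where 2.81% of all genes did. In cortex 1 of the 12 was called, against 0.0052% of all genes, and 8 had an unadjusted p under 0.05, against 4.49%. Over all chromosome 16 genes tested, 4 of 563 were called in striatum and 1 of 551 in cortex. An unadjusted p under 0.05 was reached by 3.91% and 8.35% of them. The median absolute log2 difference of the listed genes between very low and partial was 0.26 in striatum and 0.24 in cortex, against 0.047 and 0.050 over all genes tested. The list was chosen with the same 12 partial mice, so a deviation in those mice enters both steps. These shares and medians are therefore a description, and no enrichment was tested. The genes named next were chosen after their values were seen, and log2 differences are those of very low from partial with Q140 status and sex in the fit. Slc35a5, a transporter of the nucleotide-sugar family, had means with both copies, partial and very low of 44.3, 38.7 and 35.1 CPM in striatum (log2 difference -0.16, SE 0.036). Pcnp had 73.2, 63.5 and 57.6 CPM in cortex (log2 difference -0.15, SE 0.042). Other genes had values near 0 at the second step. Cpox, an enzyme of haem synthesis, had 39.0, 35.3 and 36.1 CPM in cortex (log2 difference -0.0017, SE 0.0418), and Nxpe3 had 28.8, 32.4 and 32.7 CPM (0.02, SE 0.057). Dubr, a long noncoding RNA, had medians of 20.2, 22.2 and 25.2 CPM in striatum, where the first step was a rise, and of 4.88, 3.49 and 2.44 CPM in cortex, where it was a fall; its log2 differences at the second step were 0.09 (SE 0.047) and -0.51 (SE 0.163). Abi3bp, which encodes a matrix-associated protein, had means of 24.4, 18.9 and 11.5 CPM in striatum and of 6.82, 13.5 and 16.4 CPM in cortex, so its first step was a fall in striatum and a rise in cortex. Its fitted second step was -0.28 (SE 0.165) in striatum, smaller than the means alone give, and 0.42 (SE 0.215) in cortex. The second step was not called for Slc35a5, Pcnp, Cpox, Nxpe3, Dubr or Abi3bp in either tissue.

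**Figure D4:**
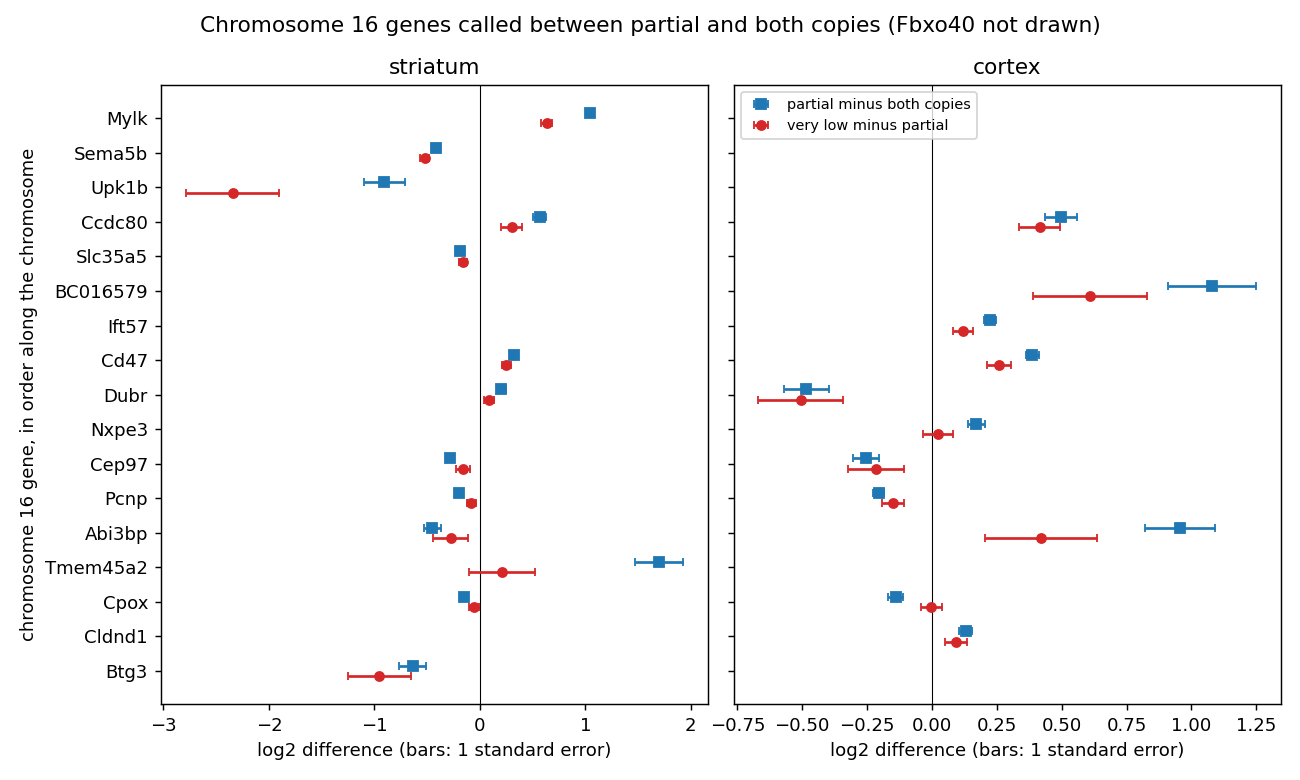
Log2 differences (linear axes, bars of 1 standard error) of partial from both copies (squares) and of very low from partial (circles) for the chromosome 16 genes called at the former step in each tissue, in order along the chromosome; Fbxo40 is left out for its size. The circles run from -2.34 (Upk1b) to 0.63 (Mylk) in striatum, and both sets of values use the 12 partial mice.

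The partners of Polq in end joining did not pass the test. None of the 17 tested genes of theta-mediated end joining other than Polq was called in either tissue, and 0 had an unadjusted p under 0.05. Their median log2 difference was -0.002 in striatum and -0.016 in cortex, beside -0.0003 and -0.0006 over all genes. Parp1, Lig3 and Xrcc1 are given for their roles, after their values were seen. Parp1, the break sensor, had log2 differences of 0.02 (SE 0.034) and 0.01 (SE 0.035). Lig3, the ligase, had -0.02 (SE 0.032) and -0.04 (SE 0.042), and its partner Xrcc1 had 0.02 (SE 0.051) and 0.02 (SE 0.041). The widest values were those of Rbbp8, which starts end trimming, at -0.19 in striatum (SE 0.107), and of Plk1, a mitotic kinase that phosphorylates polymerase theta, at -0.34 in cortex (SE 0.184).

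Other repair and damage lists gave no calls either. Among 16 tested genes of classical end joining, 20 of homologous recombination, 14 other DNA polymerases with Helq and 17 of mismatch repair and CAG expansion, none was called in either tissue. Msh3, a mismatch repair protein involved in CAG repeat growth, had a log2 difference of 0.11 in cortex (SE 0.048, edgeR adjusted p = 0.991). Among 22 p53 targets and damage response genes, 0 were called, with medians of -0.02 in striatum and -0.005 in cortex. Among 19 interferon response and DNA sensing genes, 0 were called; in cortex 16 of the 19 had values below 0 and the median was -0.12, and in striatum the median was -0.02.

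No marker of a brain cell type passed the test. The 27 markers shared by spiny projection neurons, the main neurons of the striatum, had a median log2 difference of 0.03 in striatum. Of the 27, 24 had values above 0 and 0 were called. An unadjusted p under 0.05 was reached by 6 of the 27, a larger share than the 2.81% of all striatal genes. Ppp1r1b (0.06, SE 0.025), Pde10a (0.08, SE 0.029) and Scn4b (0.09, SE 0.034) were among those 6, named after their values were seen, and their edgeR adjusted p was 0.9999. The summed level of the 27 markers, pooled over Q140 status, had medians of 20220 CPM in the very low striata and 28310 CPM in the partial striata. These sums are not adjusted for Q140, which 3 of the 4 very low and 5 of the 12 partial mice carried. Among mice with Q140, the mean log2 level of the markers in striatum was 8.93 to 8.987 in the partial class. Every very low mouse with Q140 lay above that range, up to 9.033. The very low mouse without Q140 had 9.471, just below the partial range without Q140 of 9.473 to 9.545. A class difference in this mean was not tested. Markers of astrocytes (10), oligodendrocytes (12), microglia (15), endothelium (10) and mural cells (9) gave 0 calls in either tissue, with medians from -0.0552 to 0.0019. Among 11 interneuron markers, Lhx6, a transcription factor of interneurons from the medial ganglionic eminence, had 0.18 (SE 0.058) in striatum and -0.09 (SE 0.056) in cortex, and Slc5a7, the choline transporter of cholinergic neurons, had 0.10 (SE 0.043) in striatum. Among 14 circadian clock genes the medians were 0.09 in striatum and 0.08 in cortex, and Tef, a clock-controlled transcription factor, had 0.10 (SE 0.038) and 0.12 (SE 0.047); 0 were called. Over all 24 lists, 0 of 311 distinct genes were called in striatum and 0 of 309 in cortex, with 13 (4.18%) and 12 (3.88%) at an unadjusted p under 0.05, and DESeq2 and limma voom also called 0 of them.

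The lists with the widest medians in striatum were choroid plexus and immediate early genes. The 10 choroid plexus markers had a median of -0.55 with a median SE of 1.40, and their summed level was 25.7 to 68.5 CPM in the very low mice and 27.6 to 1444 CPM in the partial mice. By the medians of these sums the very low mice were the higher, at 42.0 against 35.7 CPM, so the fitted median and the class medians differ in sign. The value of 1444 CPM belonged to Polq+/- female 3; the other partial striata lay below 50.9 CPM, the second highest very low value. Without that library 5 genes were called in striatum, the number found with it. The 20 immediate early genes, which neurons switch on after activity, had a median of -0.40 with a median SE of 0.30, and Nr4a2, a nuclear receptor induced by activity, had -0.76 (SE 0.308). Their summed level was 1045 to 1629 CPM in the very low striata and 875 to 2823 CPM in the partial striata, so the classes overlapped, and 0 of the 20 were called. In cortex the median of the same genes was -0.07, and the 6 choroid plexus markers tested there had a median of 0.25.

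**Figure D5:**
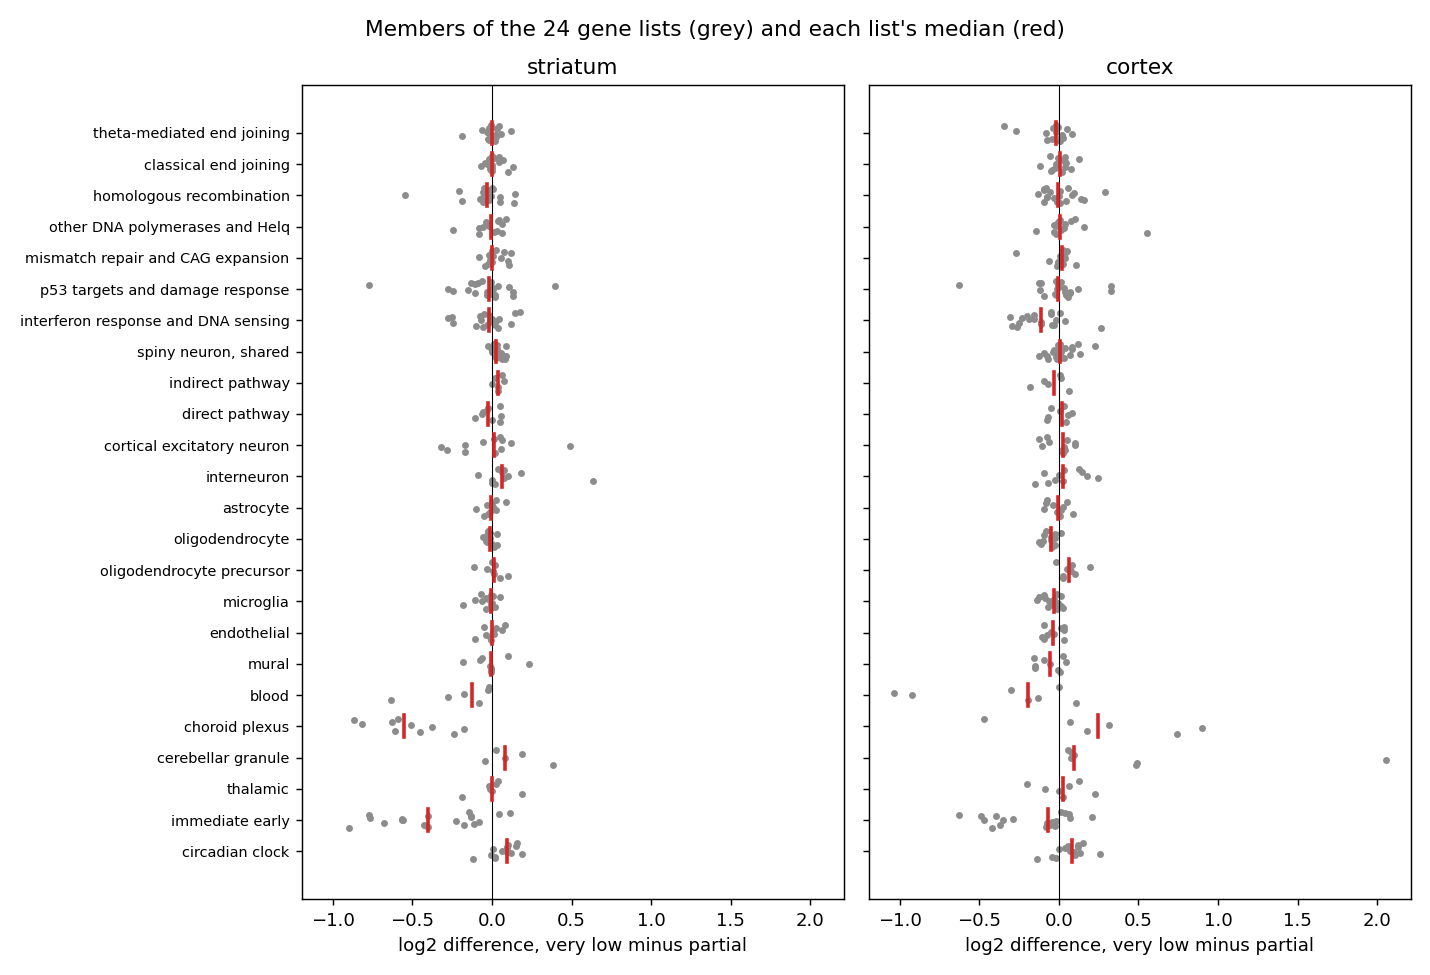
Log2 difference of very low from partial mice (linear axis) for each tested member of the 24 gene lists (grey points) with the list's median (red bar), in striatum (left) and cortex (right). No member was called; the medians farthest from 0 are those of choroid plexus (-0.55) and immediate early genes (-0.40) in striatum and of choroid plexus (0.25) and blood (-0.19) in cortex. The choroid plexus value in striatum includes 1 partial library at 1444 CPM, and the class medians of the summed level run the other way.

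The position of the libraries on the plate went with the classes: all 4 very low mice lay on the higher 2 plate columns of their tissue, and 4 of the 12 partial mice did. Within those columns alone, 4 very low against 4 partial mice, the log2 differences in striatum were 0.59 for Mylk, -0.53 for Sema5b, 0.28 for Cd47 and 0.82 for Fbxo40, and in cortex 0.94 for Fbxo40 and 0.29 for Cd47. All of these were called within the columns (edgeR adjusted p from 0.00602 to 0.0148) except Fbxo40 in striatum (edgeR adjusted p = 0.205). Within the 8 Q140 Polq+/- mice alone the striatal values were 0.62 for Mylk, 0.26 for Cd47 and 0.83 for Fbxo40, of which Fbxo40 was not called (edgeR adjusted p = 0.111).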

How the data were processed

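Genotype, sex, replicate and tissue came from the labels; RNA was extracted with a Qiagen RNeasy kit and libraries were made with a TruSeq stranded kit, per the labels' protocols. STAR 2.7.5c, SAMtools 1.10, HTSeq 0.12.3 and the GRCm38 (mm10) build are named in the submitters' processing notes. For 48795 genes the authors gave raw counts, not normalized, and FPKM; the deposited FPKM were the counts rescaled by length and library total. Positions came from GENCODE M21, which held 48435 of the genes. Striatal libraries totalled 28.7 to 40.6 M counts and cortical ones 30.9 to 40.1 M.

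The Polq limit, the comparison and the gene lists were chosen with earlier results of these data known. Polq was left out of every fit. The main test was that of edgeR 4.0.16, run under R 4.3.3 (quasi-likelihood, robust, TMM, filterByExpr by class and Q140 status, terms for Q140 and sex, Benjamini-Hochberg over all genes, called under 0.05). The smallest group of that filter held only the very low mouse without Q140, so a gene with enough counts in a single library was tested. Each SE was worked back from the test, as the absolute log2 difference over the square root of the F value. The intervals of log2 differences used this SE and the tissue's median degrees of freedom, so both are approximate. Partial mice were compared with both copies in a fit of all 32 mice per tissue, and the tissues with the mouse as a block. The alternatives used DESeq2 1.42.0, limma 3.58.1, other scalings, filters, covariates and subsets, and left out each mouse. Genes named were Polq, Fbxo40, every gene called between very low and partial, the tested genes next to Polq, and up to 2 members of each list with the smallest p; others are said to be chosen after their values were seen.

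The fits were tested on simulated data. No 2 libraries of a class matched within sampling noise (smallest chi-square per degree of freedom 3.27).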

Additional observations from a re-analysis of the deposited data

Results flagged for a closer look

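The Mylk class effect was 0.45 larger on the log2 scale in striatum than in cortex, by a test of that difference with each mouse as a block (edgeR adjusted p = 0.0364).

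Among the 4 very low mice, 1 value stood far from the other 3 in 4 of 14 sets examined (Dixon's test at its critical value of 0.829, which chance passes in about 1 set in 20). In striatum all 3 such values belonged to Polq+/- male 3, the very low mouse without Q140: Myh6 at 1.69 CPM, above the others, Sema5b at 17.5 CPM, above the others, and Stxbp5l at 57.3 CPM, below the others. In cortex Myh6 was at 0 CPM in Q140 Polq+/- female 3, where the others had 2 counts each. For Sema5b the partial striata also differed by Q140 status, with 23.4 to 25.6 CPM without Q140 and 20.3 to 22.2 CPM with it. The sets of 4 mix mice with and without Q140, and a part of Q140 in the flagged values was not tested.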

How the results depend on the processing

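Mylk was called in striatum in all 16 alternatives and all 16 fits that left out 1 mouse, and Sema5b in all of them but the fit with the replicate block (edgeR adjusted p = 0.0776). Fbxo40 was called in cortex in all but that fit (edgeR adjusted p = 0.163). The alternatives counted for each gene include the main fit itself, listed for a threshold of 0.1 and counted here at 0.05. Fbxo40 in striatum was called in 11 of the 16 alternatives, Cd47 in striatum in 8 and Myh6 in 4 of the 12 that tested it; the cause was not tested beyond the fewer mice in some fits. The main striatal counts were 5 genes, 4 on chromosome 16 and 1 off it. These became 3, 2 and 1 with limma on FPKM (pseudocount 0.1), and 2 genes off chromosome 16 with a pseudocount of 1. They became 8 in all and 2 off chromosome 16 with no low-count filter, and 3 in all and 0 off it with the plate side as a term, on the higher 2 plate columns, in Q140 Polq+/- mice only, and with the filter by genotype. They became 2, 2 and 0 with that filter and without the very low mouse lacking Q140; both filter alternatives were chosen after seeing the data. With limma voom, with and without a mouse-name block, 0 genes off chromosome 16 were called. Leaving out 1 mouse gave 2 to 5 genes in striatum (2 to 4 on chromosome 16, 0 to 1 off it), the lowest without Polq+/- male 3, where Sema5b and Mylk were called, and 1 to 2 in cortex, all on chromosome 16 (2 without Polq+/- female 2 or Q140 Polq+/- male 4). The cortical count of 1 became 3, all on chromosome 16, with DESeq2, with no low-count filter, with all 32 mice and on the higher 2 plate columns, and 2 in Q140 Polq+/- mice only.

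Replicate numbers were not shown to pair mice: deviations of same-numbered Polq+/- and Q140 Polq+/- mice correlated at a median r of 0.027 in striatum and 0.0043 in cortex, over 0.1 in 3 and 1 of 8 pairs, and 1 of 8 correlated best with its own number in each tissue. The replicate block gave 3 genes in striatum (1 on chromosome 16 and 2 off it) and 0 in cortex, 0 of them on chromosome 16. Of genes not called, Sema5b in cortex changed sign with the block (0.018), as did Rarb in cortex, a gene chosen after its values were seen (-0.082 with the block, -0.0034 with the plate side, -0.059 to 0.046 leaving out 1 mouse) and Stxbp5l in cortex (-0.0091 to 0.083 leaving out 1 mouse). Rarb in striatum, not called in the main fit, kept its sign. Its log2 difference there was 0.15 to 0.18 over 16 alternatives, of which 2 called it. Of the 16 fits that left out 1 mouse, 0 called it.

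With 4 very low mice, the median SE of a log2 difference was 0.0728 in striatum and 0.0708 in cortex, which limits the changes that can be seen. Polq, Upk1b and Gm609 rest on a few counts per library. The classes were defined from RNA, and no genotyping result was used here.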
